A study of Homo sapiens with 4 samples.

Results

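The tumour suppressor p53 is a transcription factor that responds to DNA damage and other stress. This account covers known p53 targets listed apart from its main apoptosis genes, though some of them, such as NINJ1, also act in dying cells. A list of 34 such targets was taken, and 32 of them had a row of their own among the 18377 named genes of the arrays. Each of the 32 had a single row, and BTG2 and FDXR are not analysed here. The members were grouped by what they do: feedback on p53 (7 measured), metabolism and mitochondria (7), DNA repair and nuclease (5), secreted factors (2), growth arrest (4), and membrane and signalling proteins (7).

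RNA came from the HuCCT1 line, established from a human cancer of the bile ducts (cholangiocarcinoma), and was hybridised to Human Gene 1.0 ST arrays, with 1 array for each of 4 conditions. The labels name cells given GEM and VPA together (GEM_VPA, the combination), cells given VPA, cells given GEM, and untreated cells. VPA usually stands for valproic acid, which inhibits histone deacetylases, and GEM for gemcitabine, a deoxycytidine analogue that blocks DNA synthesis, and both are read so here. The sources used here give no dose, exposure time or culture batch.

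Without replicates no comparison of 2 arrays has an error or a p-value, and the number of arrays limits the precision. A gene was counted as higher or lower when the 2 levels differed by 1 or more on the log2 scale (2-fold) and the higher level was at or above the median of all rows on that array. The share of all genes at level that passed the same rule is given as background. All directions follow the labels. Whether each array carries the right label cannot be checked with these files, and every direction, the opposite signs of a drug's effect and the departure from additivity depend on it. The arrays labelled GEM_VPA and untreated lay close together, as did those labelled VPA and GEM: log2 differences over all genes had a robust SD of 0.147 and 0.158 within these pairs and of 0.253 to 0.270 between them.

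All 8 measured biliary epithelial markers, keratins 7, 8, 18 and 19 among them, were at or above the array median on every array. Their summed level was 15.51 on the GEM_VPA array, 15.96 on the VPA array and 15.98 on the GEM array, against 15.54 on the untreated array (log2). Over untreated, 7 of the 8 were above 0 with each single drug, with a median of 0.46 for VPA and 0.51 for GEM, and KRT7 was 3.91-fold and 3.04-fold higher. The biliary markers thus showed the same layout over the 4 arrays as the p53 targets described below. None of the 6 leukocyte and none of the 4 endothelial markers reached the array median on any array, while 1 of 6 fibroblast and 1 of 4 hepatocyte markers did. The summed level of the leukocyte markers was 9.10 on the GEM_VPA array, 9.31 on the VPA array and 9.29 on the GEM array, against 9.22 on the untreated array (log2). That of the fibroblast markers was 10.10, 10.22 and 10.26 in the same order, against 10.12. The part of such differences in the results was not tested.

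In resting cells p53 is kept scarce by MDM2, a ubiquitin ligase that p53 itself induces. Damage signals from the ATM and ATR kinases release it from MDM2, and it then binds a response element made of a pair of half-sites near its target genes. Its targets halt the cell cycle, supply nucleotides and repair factors, adjust metabolism, send signals to neighbouring cells and dampen p53 again. Gemcitabine stalls replication forks and so activates this pathway in many cells. Some targets, such as SESN2 and GDF15, are also induced by ATF4, the transcription factor of amino acid and endoplasmic reticulum stress.

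The promoters were searched for that response element, since it is the feature by which these genes are usually known. RefSeq promoters (build GRCh38.p14, 250 bases before to 50 after each annotated start) were available for 26 of the 32 measured members. A match was either a pair of adjoining half-sites with at most 2 departures in all from the p53 consensus, the central C and G of each half-site kept, or a pair of exact half-sites up to 13 bases apart. The half-site of 10 bases reads the same on both strands, so a search of 1 strand covers both. MDM2, DDB2 and AEN held a match, that is 3 of 26 members (11.5%), while 101 of 27305 genes of the table (0.370%) did. Counted by promoter, it was 4 of 35 (11.4%), 2 of them overlapping MDM2 promoters that share the site, against 103 of 35116 (0.293%). An exact single half-site stood in promoters of 5 members (19.2%) and of 8.06% of all genes. The stretches before the start of MDM2 and AEN and the site of DDB2, just after its start, are shown with the matched bases in capitals.
MDM2, chr12:68808867-68809016, plus strand: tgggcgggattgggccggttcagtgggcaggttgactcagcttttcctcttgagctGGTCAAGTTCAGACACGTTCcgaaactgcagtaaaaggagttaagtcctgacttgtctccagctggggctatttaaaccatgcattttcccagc
AEN, chr15:88621190-88621339, plus strand: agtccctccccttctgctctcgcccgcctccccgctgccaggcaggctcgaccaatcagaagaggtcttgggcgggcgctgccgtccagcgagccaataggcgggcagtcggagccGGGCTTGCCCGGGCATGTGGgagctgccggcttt
DDB2, chr11:47214975-47215004, plus strand: gtttGAACAAGCCCTGGGCATGTTTggcgg
PLK2, SESN1 and RPS27L held an exact half-site alone, shown in the same way.
PLK2, chr5:58460199-58460228, minus strand: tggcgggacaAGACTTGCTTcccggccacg
SESN1, chr6:109009018-109009047, minus strand: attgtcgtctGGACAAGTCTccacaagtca
RPS27L, chr15:63157517-63157546, minus strand: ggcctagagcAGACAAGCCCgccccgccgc
These are matches of letters in a short window and not measured binding sites. Many p53 elements are known to lie in first introns, which windows of this length may miss.

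The first question was what each drug alone did to the members. Both single-drug arrays stood above both of the others for 28 of the 32 members, a pattern shown by 31% of all genes at level on at least 1 array. The reverse, both single-drug arrays lowest, held for LIF and the low-level SPATA18 and for 39.1% of all genes. Over untreated, 5 members were at least 2-fold higher with VPA and 0 lower (1.9% and 2.09% of all genes), and 7 were higher with GEM and 0 lower (1.48% and 3.01%). The median log2 ratio of the members was 0.37 with VPA and 0.62 with GEM, while that of all genes was -0.01 in both. These comparisons share the untreated array, so they are not independent of each other. The members higher with VPA were TP53INP1, GDF15, BTG1, PLK3 and CYFIP2; with GEM, ZMAT3 and TP53I3 joined them.

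**Figure D1:**
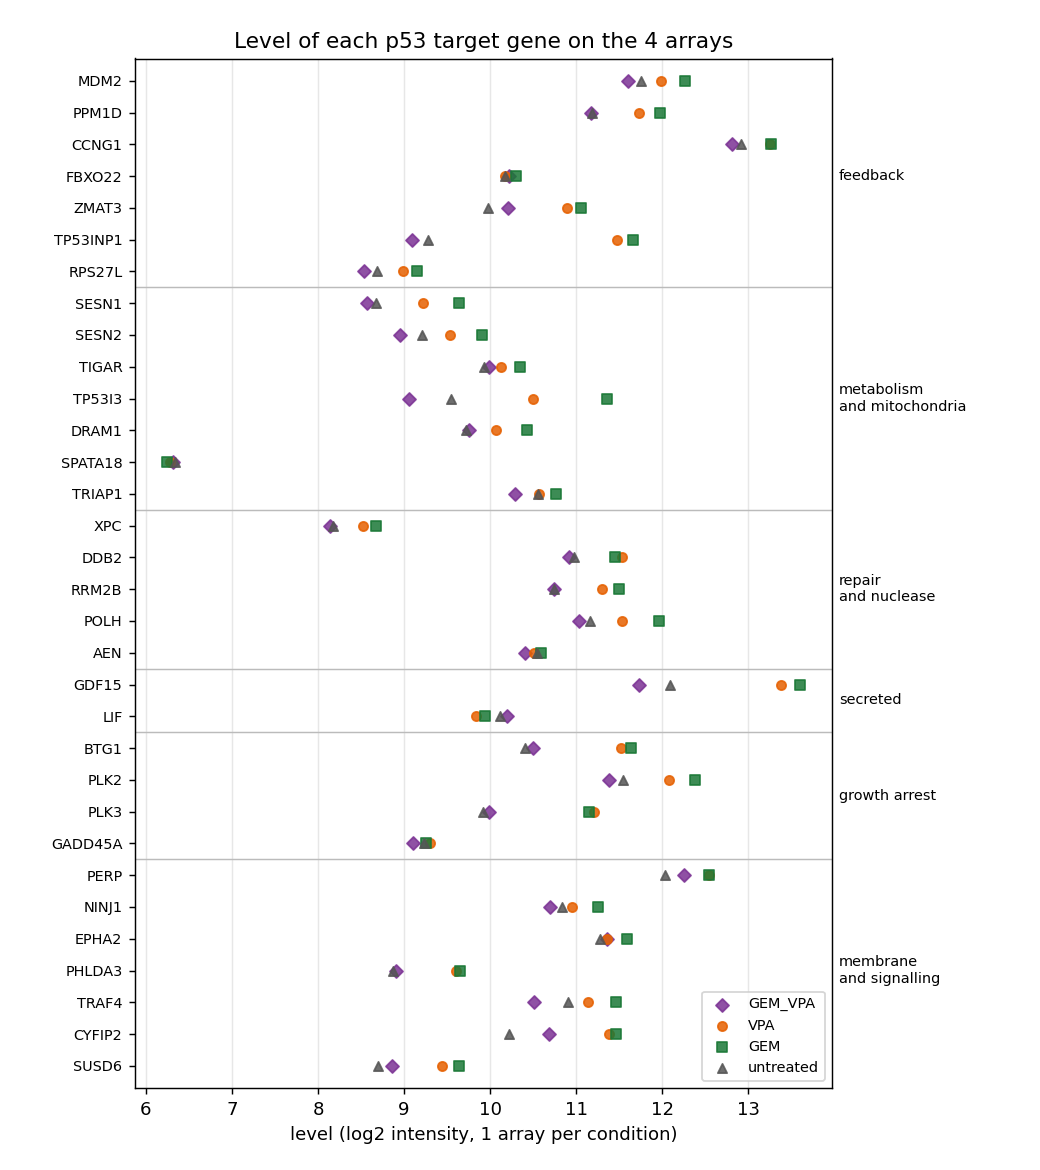
Level of each measured member (log2 intensity, horizontal axis) on the 4 arrays, by function; 1 point is 1 array. For 28 of the 32 members the VPA and GEM points both lie to the right of the GEM_VPA and untreated points; levels of different genes are not comparable with each other.

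Among the feedback genes, TP53INP1 had the largest differences. Its product is a stress-induced nuclear protein that helps kinases act on p53 and also takes part in autophagy. The level was 9.10 on the GEM_VPA array, 11.48 on the VPA array and 11.66 on the GEM array, against 9.28 on the untreated array. Both single-drug levels were far above the other 2, a 4.58-fold difference for VPA and a 5.19-fold difference for GEM over untreated. TP53INP1 ranked 17 among 11611 genes by its increase with VPA and 6 among 11593 by that with GEM.

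ZMAT3, an RNA-binding zinc finger protein that regulates splicing and mRNA stability, read 10.20 with GEM_VPA, 10.90 with VPA and 11.06 with GEM, against 9.98 without drug. It was 2.12-fold higher with GEM and 1.89-fold higher with VPA, just short of the rule. PPM1D encodes WIP1, a phosphatase that removes damage-induced phosphates from p53 and its kinases. Its level was 11.17 with GEM_VPA, 11.73 with VPA and 11.98 with GEM, against 11.18 without drug, with log2 ratios of 0.55 for VPA and 0.80 for GEM. The combination array differed from untreated by -0.01.

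MDM2, which holds the element shown above, read 11.61 with GEM_VPA, 11.98 with VPA and 12.26 with GEM, against 11.75 without drug. The ratio was 0.23 for VPA and 0.51 for GEM, below 2-fold in both and far smaller than for TP53INP1. CCNG1, cyclin G1, which brings a phosphatase to MDM2, was 0.34 higher on both single-drug arrays. RPS27L, a ribosomal protein S27 relative that interacts with MDM2, stood 0.30 above untreated on the VPA array and 0.47 above it on the GEM array. Its near-identical relatives may share probes, so the value is uncertain for the single gene. FBXO22, a ubiquitin ligase subunit that acts on methylated p53, was nearly flat, with a range of 0.13 over the 4 arrays.

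The secreted members differed from each other. GDF15, a stress cytokine of the TGF-beta family, read 11.73 with GEM_VPA, 13.38 with VPA and 13.60 with GEM, against 12.10 without drug. It was thus 2.44-fold higher with VPA and 2.85-fold higher with GEM, ranking 100 and 47 among genes at level. LIF, an interleukin-6 family cytokine, ran the other way in both, at -0.28 with VPA and -0.18 with GEM, from levels of 10.20 with GEM_VPA, 9.83 with VPA and 9.94 with GEM, against 10.11 without drug.

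Growth arrest genes had the highest group median, 0.83 with VPA and 1.02 with GEM over 4 genes. BTG1, an antiproliferative protein that links to mRNA deadenylation, read 10.49 with GEM_VPA, 11.53 with VPA and 11.63 with GEM, against 10.40 without drug. PLK3, a polo-like kinase of the stress response, read 9.99, 11.21 and 11.14 in the same order, against 9.92. Both genes were over 2-fold higher on each single-drug array: BTG1 by 2.18-fold with VPA and 2.34-fold with GEM, PLK3 by 2.44-fold and 2.33-fold. PLK3 was 1 of 5 members whose VPA level exceeded the GEM level.

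PLK2, the other polo-like kinase of this list and the holder of a half-site, read 11.38 with GEM_VPA, 12.08 with VPA and 12.38 with GEM, against 11.55 without drug. Its ratios of 0.53 for VPA and 0.83 for GEM stayed under 2-fold. GADD45A, which binds PCNA and checkpoint kinase complexes and is among the best known p53 targets, had a range of only 0.20. It read 9.10 with GEM_VPA, 9.31 with VPA and 9.26 with GEM, against 9.23 without drug.

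In the metabolic group the reading differed most for TP53I3, a quinone oxidoreductase known as PIG3. Its level was 9.05 with GEM_VPA, 10.50 with VPA and 11.36 with GEM, against 9.54 without drug. It was 3.53-fold higher with GEM and 1.94-fold higher with VPA. No other member differed as much between the single drugs: TP53I3 was at -0.87 for VPA over GEM, rank 8 from the bottom among 11477 genes. The combination array was the lowest of the 4.

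The sestrins restrain mTORC1 and limit peroxides. SESN1 read 8.57 with GEM_VPA, 9.22 with VPA and 9.64 with GEM, against 8.67 without drug, and its GEM ratio of 0.97 lay just under the limit. SESN2 read 8.95, 9.53 and 9.91 in that order, against 9.21. Ratios were 0.54 and 0.32 with VPA for SESN1 and SESN2, and 0.70 with GEM for SESN2. DRAM1, a lysosomal protein of autophagy, was at 0.35 with VPA and 0.71 with GEM. TIGAR, which lowers fructose bisphosphate and so slows glycolysis, was at 0.20 and 0.41. TRIAP1, a carrier factor for mitochondrial lipids, was at 0.01 and 0.21. SPATA18, a mitochondrial quality control protein, lay below the median of rows on all arrays, between 6.24 and 6.33, and was the only member never at level.

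No repair gene reached 2-fold. POLH, the polymerase that copies past ultraviolet lesions, read 11.03 with GEM_VPA, 11.53 with VPA and 11.96 with GEM, against 11.16 without drug. RRM2B, the p53-inducible subunit of ribonucleotide reductase, the enzyme that gemcitabine's diphosphate inhibits, read 10.74, 11.30 and 11.50 in that order, against 10.74. Ratios for VPA and GEM were 0.38 and 0.81 for POLH, and 0.55 and 0.76 for RRM2B.

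The nucleotide excision repair sensors were also above untreated on both arrays. DDB2, which recognises ultraviolet damage and carries the site shown above, read 10.92 with GEM_VPA, 11.53 with VPA and 11.45 with GEM, against 10.97 without drug, with ratios of 0.56 for VPA and 0.48 for GEM. XPC was at 0.34 with VPA and 0.50 with GEM. AEN, an exonuclease whose promoter also held a match, had ratios of -0.03 and 0.04. The 3 members with a full match thus had ratios from -0.03 to 0.56. Members with no match in the window searched had larger ones (TP53I3, GDF15, BTG1 and PLK3) as well as small ones, such as TRIAP1 at 0.01, EPHA2 at 0.09 and NINJ1 at 0.12 with VPA.

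Of the membrane and signalling members all 7 were above untreated with both drugs. CYFIP2, a component of the WAVE actin regulatory complex, read 10.69 with GEM_VPA, 11.38 with VPA and 11.46 with GEM, against 10.22 without drug. That was 2.24-fold higher with VPA and 2.36-fold higher with GEM. CYFIP2 was also the member furthest above untreated on the combination array, by 0.46.

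PHLDA3, a lipid-binding inhibitor of AKT, had ratios of 0.73 for VPA and 0.77 for GEM. SUSD6, a membrane protein, had 0.75 and 0.95. PERP, a desmosome and tetraspan protein, was at 0.51 and 0.50. TRAF4, an adaptor of receptor signalling, was at 0.23 with VPA and 0.55 with GEM. NINJ1, a plasma membrane protein that ruptures the membrane of dying cells, was at 0.12 and 0.42, and EPHA2, an ephrin receptor kinase, at 0.09 and 0.32. For these last 3 the GEM ratio was the larger, as it was for most of the list.

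**Figure D2:**
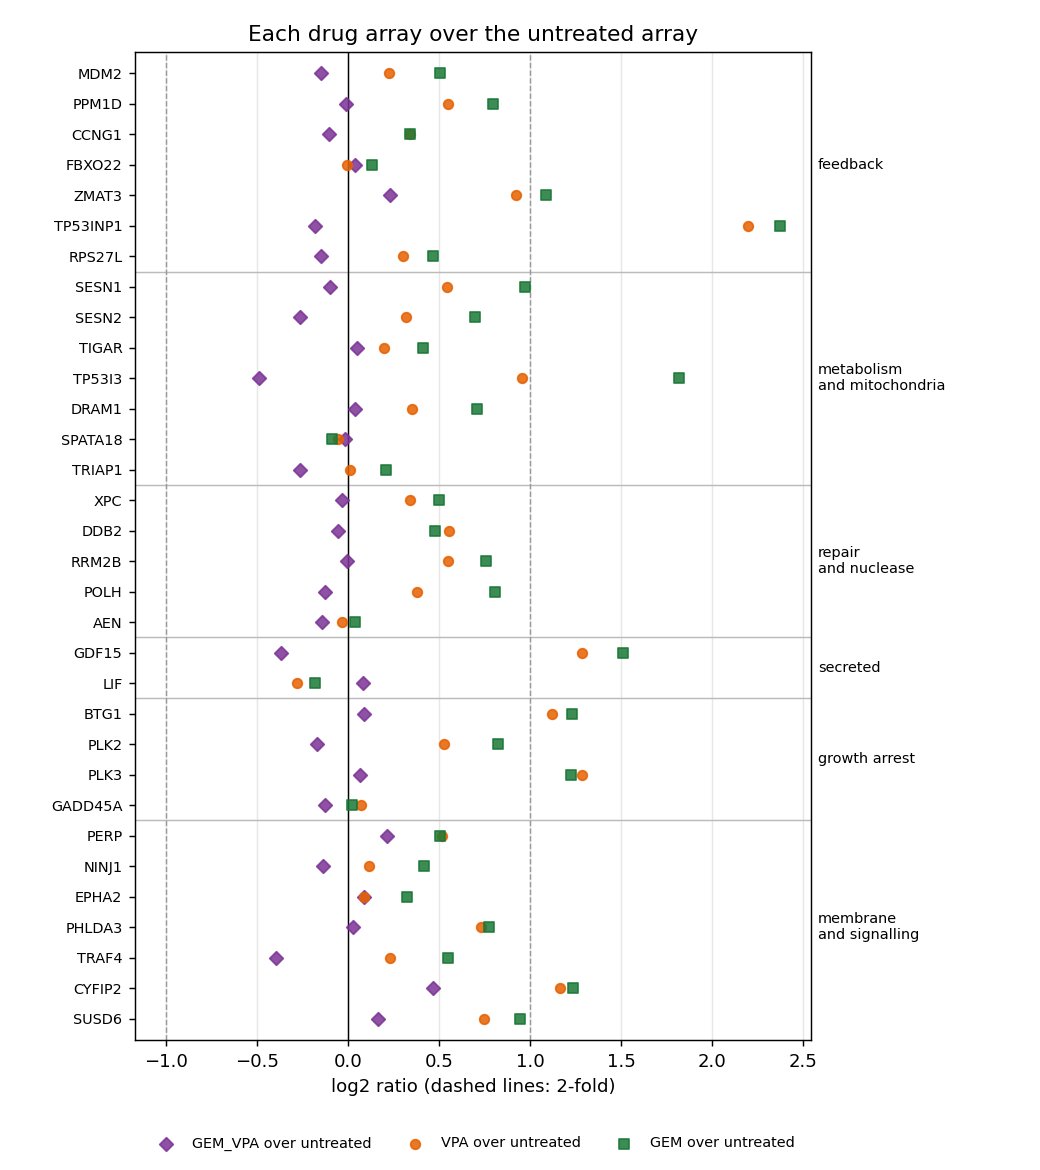
Log2 ratio of the GEM_VPA, VPA and GEM arrays over the untreated array for each measured member; dashed lines mark 2-fold. With VPA 5 members and with GEM 7 pass the right-hand line, and with GEM_VPA all lie between -0.49 and 0.46.

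The single drugs were next compared with each other. For VPA over GEM, 27 of 32 members were below 0 and the median was -0.19, while 9572 of all 18377 genes were below 0 with a median of -0.01. The GEM array was the highest of the 4 for 26 members, against 25.4% of all genes. No member reached 2-fold, and only 0.27% of all genes did upwards and 0.0349% downwards. After TP53I3 at -0.87, the lowest were POLH and SESN1, both at -0.43. DDB2 at 0.08 and PLK3 at 0.06 were the highest.

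The combination was then set against no drug. Here 0 members passed the rule in either direction, as for nearly all genes (0.122% higher, 0.0261% lower). The median of the members was -0.05 and that of all genes -0.03, and 20 of 32 members were below 0, as were 10561 of all 18377 genes. The combination array was the lowest of the 4 for 19 members, against 26.2% of all genes. The furthest below untreated were TP53I3 at -0.49, TRAF4 at -0.40 and GDF15 at -0.37. TP53I3 ranked 89 from the bottom among 11489 genes. Among the feedback genes MDM2 and RPS27L were at -0.15, TP53INP1 at -0.18 and ZMAT3 at 0.23. All 5 repair genes were between -0.14 and -0.01.

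Set against each single drug, the combination array was lower for nearly all members. Over GEM, 6 members were at least 2-fold lower and 0 higher (1.78% and 3.6% of all genes), with a median of -0.71 and 30 of 32 below 0. TP53INP1 was 5.89-fold lower, TP53I3 4.96-fold, GDF15 3.68-fold, PLK3 2.23-fold, BTG1 2.20-fold and SESN1 2.10-fold lower. PLK2 was 1.99-fold lower and SESN2 1.94-fold lower, just short of the rule. Over VPA, 5 members were 2-fold lower and 0 higher (1.68% and 1.48%), with a median of -0.53. TP53INP1 was 5.20-fold, GDF15 3.15-fold, TP53I3 2.72-fold, PLK3 2.33-fold and BTG1 2.04-fold lower. LIF was the highest member in both, at 0.26 over GEM and 0.36 over VPA. Of the members 29 of 32 were below 0 over VPA. The median of all genes was -0.02 over GEM and -0.01 over VPA, with 9693 and 9511 of the 18377 below 0.

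**Figure D3:**
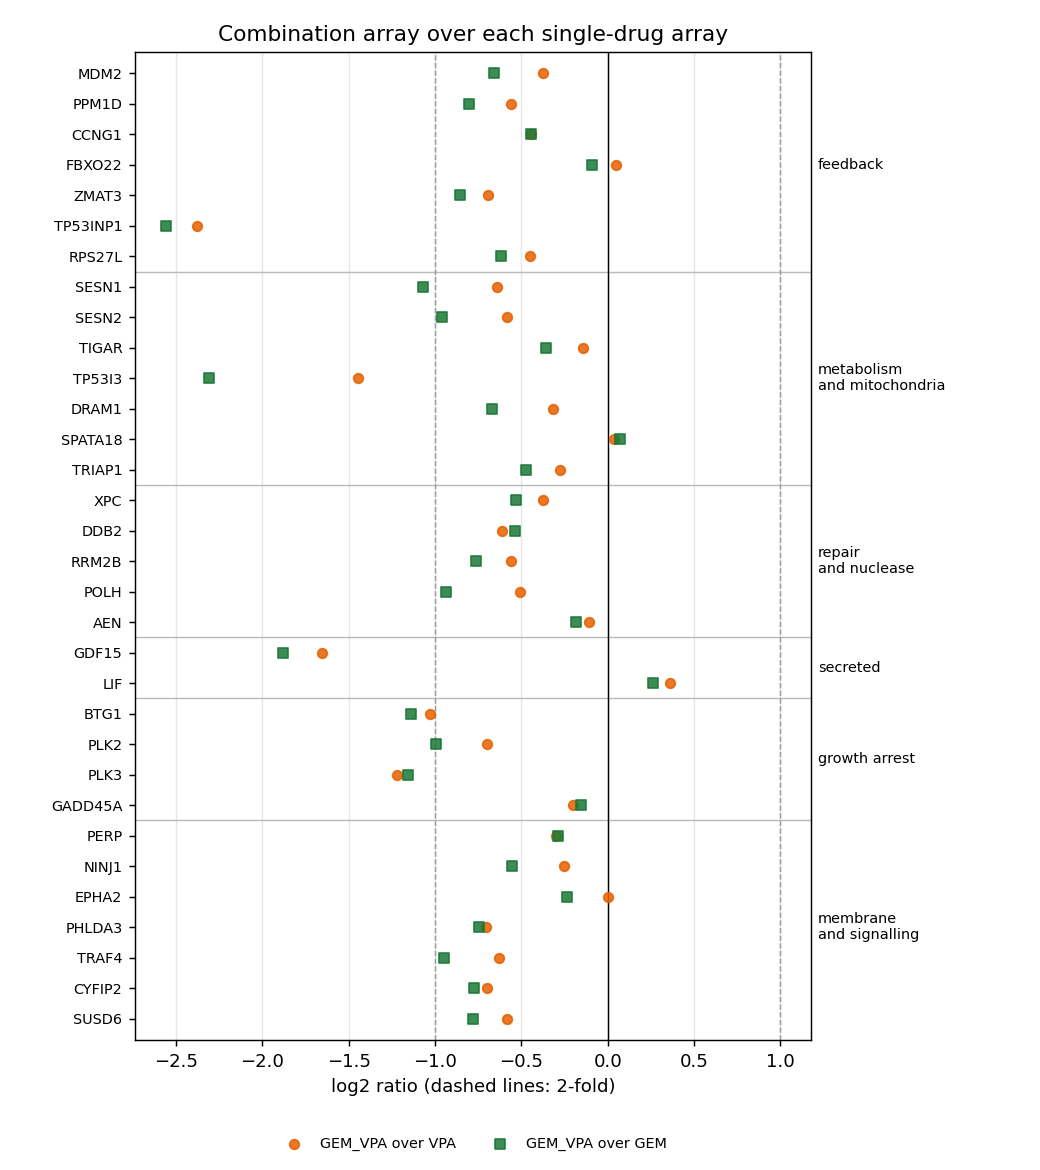
Log2 ratio of the GEM_VPA array over the VPA array and over the GEM array for each measured member; dashed lines mark 2-fold. TP53INP1, TP53I3, GDF15, PLK3 and BTG1 lie left of the lower line in both comparisons and SESN1 in that over GEM; LIF lies furthest right.

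The effect of VPA was thus opposite in sign without and with GEM for TP53INP1, GDF15, BTG1 and PLK3, which were 2-fold higher in VPA over untreated and 2-fold lower in GEM_VPA over GEM. These 2 comparisons share no array, but they are not independent. GEM_VPA lay close to untreated and VPA close to GEM, so a gene higher in the first tends to be lower in the second. All genes at level showed this combination of calls at 0.694%. It held for 82 of the 221 genes called higher with VPA, and for 4 of the 5 such members. The corresponding pattern for GEM held for TP53INP1, TP53I3, GDF15, BTG1 and PLK3, and for 0.957% of all genes. Of the 172 genes called higher with GEM 113 showed it, and of the 7 such members 5. The departure from additivity, GEM_VPA minus GEM minus VPA plus untreated, had a median of -1.13 over the members and -0.01 over all genes. It was below 0 for 30 members and for 9345 of all genes, and ran in those members from -4.75 for TP53INP1 to -0.08 for FBXO22. It was above 0 for SPATA18 (0.13) and LIF (0.54).

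Other genes of the pathway were followed on the same arrays. Of 14 measured p53 targets of apoptosis and CDK inhibition, 1 was at least 2-fold higher with VPA and 2 with GEM (1.9% and 1.48% of all genes). None was lower with either drug (2.09% and 3.01% of all genes). CDKN1A, the CDK inhibitor p21, read 11.05 with GEM_VPA, 12.63 with VPA and 13.04 with GEM, against 11.17 without drug. FAS, the death receptor, was 1.23 higher with GEM and 0.81 with VPA, and BAX, the pore-forming protein of mitochondria, 0.49 and 0.40. The median of this list was 0.20 with VPA and 0.50 with GEM, somewhat under that of the members.

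Of 18 measured regulators of p53, 0 were higher and 2 lower with each single drug. Of all genes, 1.9% were higher and 2.09% lower with VPA, and 1.48% and 3.01% with GEM. Their median was -0.27 with VPA and -0.24 with GEM, with 13 below 0 and 5 above 0 for VPA, and 14 below and 4 above for GEM. PPP1R13L, an inhibitor of p53 named here after its values were seen, was the highest, with ratios of 0.37 for VPA and 0.41 for GEM. The genes at least 2-fold lower were the checkpoint kinases CHEK1, at -1.10 with VPA and -1.14 with GEM, and CHEK2, at -1.11 and -1.27. MDM4, a partner of MDM2 that blocks the p53 activation domain, was at -0.79 and -0.61. Over untreated on the combination array these 3 genes were between -0.19 and 0.04.

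ATF4 targets outside the list were examined because SESN2 and GDF15 answer to that factor as well. Of 12 measured, 0 were higher (1.9% of all genes with VPA and 1.48% with GEM). With VPA 3 were lower and with GEM 4 (2.09% and 3.01% of all genes). SLC7A11, the cystine transporter, was at -2.29 and -2.27, ASNS, asparagine synthetase, at -1.26 and -1.34, and PSAT1, of serine synthesis, at -1.20 and -1.12. PHGDH, the first enzyme of serine synthesis, had ratios of -0.63 for VPA and -1.31 for GEM. DDIT3, the stress factor CHOP, was at -0.67 and -0.60. ATF3, a stress factor that p53 is also known to induce, was at 0.41 and 0.70. ATF4 targets had a median of -0.52 with VPA and -0.49 with GEM. On the combination array 11 of the 12 were below untreated (median -0.25), as were 10561 of all 18377 genes (median -0.03). SESN2 was at -0.26 there and GDF15 at -0.37. DDIT4, an inhibitor of mTORC1 signalling, was at -0.82 there and at -1.10 over GEM. The part of ATF4 in the levels of SESN2 and GDF15 was not tested.

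**Figure D4:**
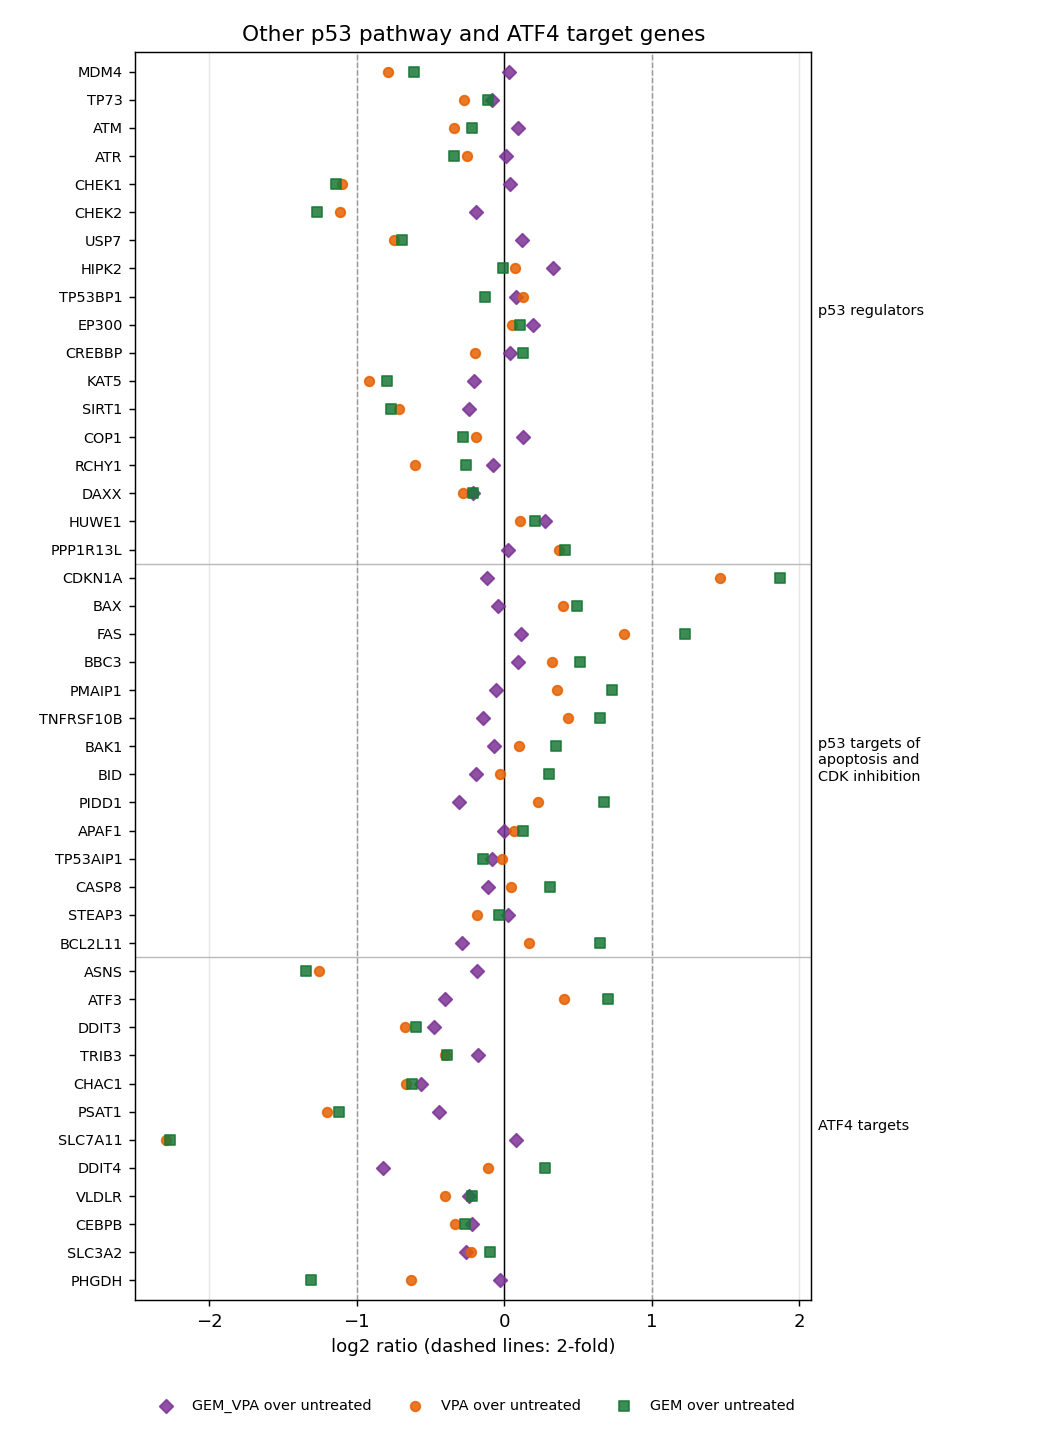
Log2 ratio of the GEM_VPA, VPA and GEM arrays over the untreated array for regulators of p53, p53 targets of apoptosis and CDK inhibition, and ATF4 targets; dashed lines mark 2-fold. CDKN1A and FAS pass the upper line, and CHEK1, CHEK2, ASNS, PSAT1, SLC7A11 and PHGDH the lower one.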

How the data were processed

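The deposited table holds log2 intensities of 28869 rows on 4 arrays, normalized by the authors in GeneSpring GX 11.5, as the series text of the labels has it, and by RMA according to the submitters' processing notes. RMA equalises the intensity distribution between arrays and compresses low values. The sources used here name no genome build for the rows. The platform annotation gave 1 symbol to 19310 rows, and a gene took the mean of its rows. The limit of 2-fold is the authors' ratio limit (2.0 and 0.5). No replicates exist, so no test was made. The members, lists and limits were chosen with earlier results of these data known. All members are named; from the other lists, those past 2-fold in any comparison and the first 3 listed were eligible to be named. The 2-fold rule and the site search were tested on simulated data. Alternatives covered normalization, level filter, fold limit and choice of row. Software was Python 3.11.15, numpy 2.4.6, pandas 2.3.3 and matplotlib 3.10.9. Promoter sequences are RefSeq's.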

Additional observations from a re-analysis of the deposited data

Results flagged for a closer look

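The difference that a drug made was 2-fold or more in one direction without the other drug and in the opposite direction with it for 5 members. The departure from additivity on the log2 scale was -4.75 for TP53INP1, -3.17 for GDF15, -2.45 for PLK3 and -2.26 for BTG1, where this held for both drugs, and -3.27 for TP53I3, where it held for GEM. With 1 array per condition the difference between the effects was not tested. The closeness of GEM_VPA to untreated and of VPA to GEM makes such opposite signs common among all genes that differ.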

How the results depend on the processing

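No paired analysis was possible because each condition has 1 array, and for the same reason no array could be left out. Of 81 values of counts and medians under the alternatives, 74 stayed within 1.5 times the count or within 0.104 of the median (log2). That width comes from the closest pair, GEM_VPA and untreated, which are not replicates, so it may mix drug effect with noise. Of the medians 0 reversed, and a count has no sign to reverse. Each member has 1 row, and only SPATA18, with a range of 0.09, was never at level. The choice of row and the level filter thus could change no count at 2-fold, so part of the 74 was fixed in advance. After quantile normalization of the columns again, 10 members were lower in GEM_VPA over GEM, with SESN2, PLK2, POLH and TRAF4 now past 2-fold, and the median departure from additivity was -1.33. The share of all genes past 2-fold was not computed after that normalization, so the count of 10 has no background to be set against. The same setting put ZMAT3 and TP53I3 past 2-fold with VPA and SESN1 with GEM, and subtracting each array's median took BTG1 in GEM_VPA over VPA to -0.97. At a 1.5-fold limit, 9 members were higher with VPA (6.64% of all genes) and 16 with GEM (5.95%). At that limit 19 were lower in GEM_VPA over GEM (6.56%), 12 in GEM_VPA over VPA (5.91%) and 1 in VPA over GEM (0.314%). Of 576 single member ratios the largest move was 0.12. A 2-fold call reverses only if its ratio crosses 0, so moves of that size could reverse none, and 0 did. The ratios under the choice of row could not move at all, as each member has 1 row. The cause of these moves was not tested. Signal over background is unknown for these arrays, which limits low levels such as that of SPATA18.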
